A study of Mus musculus with 64 samples.

Results

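The mitochondrial ribosomal protein genes were described in sorted mouse microglia that carried or lacked RISP, an iron-sulphur subunit of the respiratory chain that Uqcrfs1 encodes, named after Rieske and part of complex III. Members were all genes of the deposited count table whose symbol was Mrpl or Mrps followed by digits only, which gave 74 of 45708 genes, 48 named Mrpl and 26 named Mrps. All 74 passed the filter on low counts, which kept 18413 genes for testing. Mitochondrial ribosomes are built from ribosomal RNA encoded in mitochondrial DNA and from proteins that are encoded in the nucleus and imported. Mrpl genes encode proteins of the large subunit, which forms peptide bonds, and most Mrps genes encode proteins of the small subunit, which reads the mRNA. These ribosomes make the few respiratory chain and ATP synthase subunits that mitochondrial DNA encodes. Some of their proteins have relatives in bacterial ribosomes and others are found only in mitochondria.

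RNA-seq was done on 64 libraries of CD11b and CD45 sorted microglia, the resident macrophages of the brain. Adult RISP KO mice gave 13 naive libraries, 6 under cuprizone, 2 at PLX3397 depletion and 4 at PLX3397 repopulation. Adult RISP Het mice gave 13 naive libraries, 4 under cuprizone, 2 at depletion and 4 at repopulation, and old RISP Het mice gave 3 naive libraries. Adult RISP WT mice gave 5 naive libraries, 4 at depletion and 4 at repopulation. Cuprizone is a copper chelator that damages oligodendrocytes and myelin, and PLX3397 is an inhibitor of CSF1R, a receptor that microglia need to survive. Dose, day of treatment, sex and the promoter that drives the recombinase are not in the labels, nor whether replicates are separate mice, so p-values measure the spread between libraries, which may be technical. CreERT2, a recombinase switched on by tamoxifen, was counted in every library of every genotype, WT included. Replicates are called by their numbers in the labels.

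Uqcrfs1 had log2 fold changes of -1.73 to -3.95 in the 9 comparisons of KO with Het or WT (edgeR's quasi-likelihood test, Benjamini-Hochberg adjusted p under 0.05 as the threshold for a call, here and below). Of the 9, 8 passed, and naive 12 to 13, with 2 libraries a group, did not (adjusted p = 0.289). Total counts per library ran from 2695432 to 24027566. The libraries fell into sets that differ in depth and in the share of counts on the noncoding RNAs Gm26917 and Yam1. The share was 0.0688 to 0.276% in naive KO and WT 01 to 05, naive Het 01 to 04 and all PLX3397 libraries, and 2.22 to 13.6% in the others. Groups were therefore compared inside sets, and cuprizone with naive KO 06 to 11 or Het 05 to 11. By 4 Y-linked genes, 41 libraries were male and 23 female. The 9 microglia markers summed to 16500 to 52000 CPM (counts scaled to library size, with TMM factors) in every library, and none was at 0 in any group. The 7 border macrophage markers summed to 179 to 584 CPM in naive KO 01 to 05, against 544 to 841 in naive Het 01 to 04 and 549 to 1270 in naive WT 01 to 05, and to 29.9 to 183 CPM after PLX3397. In bulk samples, fewer cells of a type and less RNA per cell cannot be told apart. The part of these differences in the results below was not tested.

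The promoters of the 3 members that were called higher in KO most often are shown because these genes were called together. They are Mrpl52, a protein of the large subunit found only in mitochondria, and Mrpl30 and Mrpl23, which have bacterial relatives and sit in the large subunit. Each sequence is from RefSeq for GRCm38.p6 and runs from 250 bases before to 50 bases after the start that RefSeq gives for the gene, on the plus strand. For Mrpl23 that start lies downstream of the first base of the GENCODE gene, whose position is given further on, so the printed window lies inside the GENCODE gene. Mrpl52 is at chr14:54426659-54426958, Mrpl30 at chr1:37890227-37890526 and Mrpl23 at chr7:142532782-142533081. Capitals mark CCGGAAG on either strand, a core sequence bound by ETS family factors.
Mrpl52: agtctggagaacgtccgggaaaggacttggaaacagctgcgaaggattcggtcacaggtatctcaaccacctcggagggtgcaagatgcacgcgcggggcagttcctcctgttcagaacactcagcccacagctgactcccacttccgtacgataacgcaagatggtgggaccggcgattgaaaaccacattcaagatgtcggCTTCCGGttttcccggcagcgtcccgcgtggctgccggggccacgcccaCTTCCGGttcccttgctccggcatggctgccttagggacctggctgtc
Mrpl30: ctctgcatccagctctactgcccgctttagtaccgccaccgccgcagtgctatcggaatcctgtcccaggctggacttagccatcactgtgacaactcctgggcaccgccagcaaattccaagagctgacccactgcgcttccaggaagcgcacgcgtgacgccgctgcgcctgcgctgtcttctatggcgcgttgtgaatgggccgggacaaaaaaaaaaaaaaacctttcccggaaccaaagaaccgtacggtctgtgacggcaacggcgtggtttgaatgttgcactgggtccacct
Mrpl23: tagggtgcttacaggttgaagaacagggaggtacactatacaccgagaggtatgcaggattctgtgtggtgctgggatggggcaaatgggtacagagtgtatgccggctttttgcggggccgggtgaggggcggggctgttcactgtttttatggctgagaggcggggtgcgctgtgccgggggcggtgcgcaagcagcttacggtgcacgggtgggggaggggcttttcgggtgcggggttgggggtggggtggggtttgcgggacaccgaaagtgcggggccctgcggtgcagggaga

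Mrpl52 held 2 matches and the other 2 genes held none. Of the 74 members, 65 had a promoter in the table, and 22 of these (33.8%) held at least 1 match, against 17.9% of the promoters of genes tested and 9.9% of all promoters. The other words were searched on both strands too. AAGATGGCG, a core word of YY1 sites, was in 7 member promoters (10.8%), against 3.1% of genes tested. A word of NRF1 sites, named here without its letters, was in 3 (4.6%), against 2.1%. CACGTG, the E-box, was in 4 (6.2%), against 11.2%. TGATGNAA, a core word of sites for ATF4 and C/EBP factors, was in 0 of the 65, against 2.8% of genes tested. A match is a description of these letters and not a bound site.

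The 74 genes lie on 17 chromosomes. Mrpl52 (ENSMUSG00000010406) is on chromosome 14 from 54426909 to 54429756 of GRCm38, plus strand, with 1109 exon bases that no other annotated gene shares. Mrpl30 (ENSMUSG00000026087) is on chromosome 1 from 37890477 to 37898535 and Mrpl23 (ENSMUSG00000037772) on chromosome 7 from 142532686 to 142540747, both on the plus strand and with no shared exon base. In all, 30 members share exon bases with another annotated gene, 7 on the same strand and 26 on the opposite one. The kit is stranded per the labels, but the strand setting of the counting is not given, so values of those 30 are uncertain. The largest shares with 1 other gene among members named below were in Mrpl53, with 695 exon bases (88%) inside Gm42688 on the same strand, in Mrpl43, with 507 (33.4%) opposite Twnk, and in Mrpl24, with 594 (26.3%) opposite Rrnad1.

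Per kilobase of exon and averaged over all libraries, Mrpl52 had 27.3 CPM per kb, Mrps21 24.5 and Mrpl43 22.4, the 3 highest means. The order differed between groups. Mrpl52 was the highest member in the groups with the larger Gm26917 and Yam1 share and in repopulated KO, but not in the others. In naive KO 01 to 05 it held place 3, with 23.9 CPM per kb against 30.9 for Mrps21. In naive Het 01 to 04 it held place 8, with 15 against 28.1 for Mrpl2, and in naive WT place 7, with 16.3 against 29.4 for Mrpl2. The lowest means over all libraries were those of Mrpl33 with 1.12, Mrps35 with 1.51 and Mrpl32 with 1.53 CPM per kb. Length here is that of all annotated exons of a gene merged, whether or not they are used in these cells. It was 7326, 8631 and 4982 bases for these genes, against a median of 2394 over the members. Not divided by length, they had 8.22, 13 and 7.61 CPM. In CPM not divided by length, the highest means over all libraries were those of Mrpl24 (37.1), Mrpl43 (34) and Mrpl52 (30.2), and the lowest Mrpl53 (4.63), Mrps6 (5.36) and Mrps28 (6.13). Together the 74 genes took 0.0758 to 0.16% of the counts of a library in the adult groups.

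Mrpl52 was higher in KO than in Het and in WT in naive 01 to 05. In the first naive set, KO 01 to 05 held 21.6, 30.2, 27.3, 29.1 and 24.5 CPM, against 14.3, 16.7, 16.4 and 19.1 in Het 01 to 04. The groups did not overlap, and the log2 fold change was 0.68 ± 0.131 (SE, n = 5 and 4, adjusted p = 0.00114). WT 01 to 05 held 20.4, 15.2, 23.5, 17.6 and 13.5 CPM, and KO against WT gave 0.56 ± 0.122 (adjusted p = 0.0052). KO 01 lay inside the WT range and KO 05 only just above it. In the second set, KO 06 to 11 ran from 34.2 to 50.5 CPM with a median of 39.8, and Het 05 to 11 from 19.3 to 36.8 with a median of 21.9. Het 09 was above 2 of the KO libraries there, and the difference of 0.65 ± 0.178 did not pass the test (adjusted p = 0.0507). In the third set, KO 12 and 13 held 36.2 and 40.1 CPM, against 28.8 and 30.1 in Het, a difference of 0.37 ± 0.249 that did not pass (adjusted p = 0.715).

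Under treatment Mrpl52 was again higher in KO. With cuprizone it ran from 39.8 to 53.4 CPM in the 6 KO libraries with a median of 46.1, against 18.6, 18.4, 26.7 and 26.8 CPM in Het. The groups did not overlap (log2 fold change 1.04 ± 0.18, adjusted p = 0.00448). At depletion KO held 35 and 38.7 CPM, against 21.2 and 23.2 in Het and 17.2, 20.3, 20.1 and 17.6 in WT. KO was above both controls, by 0.73 ± 0.194 over Het (adjusted p = 0.0395) and 0.97 ± 0.163 over WT (adjusted p = 0.000202). The first of these calls was lost without any 1 of its 4 libraries (adjusted p = 0.128 to 0.213). At repopulation KO held 48.3, 38.9, 43.6 and 35.9 CPM, against 24.1, 28.2, 27 and 29.6 in Het and 26.9, 26.3, 28.2 and 29.2 in WT. Every KO library was above every control there, by 0.61 ± 0.136 over Het (adjusted p = 0.0028) and 0.59 ± 0.136 over WT (adjusted p = 0.00383). KO against Het and KO against WT share their KO libraries. Mmp14, a membrane metalloproteinase gene, starts 1856 bases downstream of Mrpl52 on the same strand. Its log2 fold change was below 0 in all 9 comparisons of KO with a control and passed the test in 4, for example with -0.71 ± 0.145 against naive WT (adjusted p = 0.0024).

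**Figure D1:**
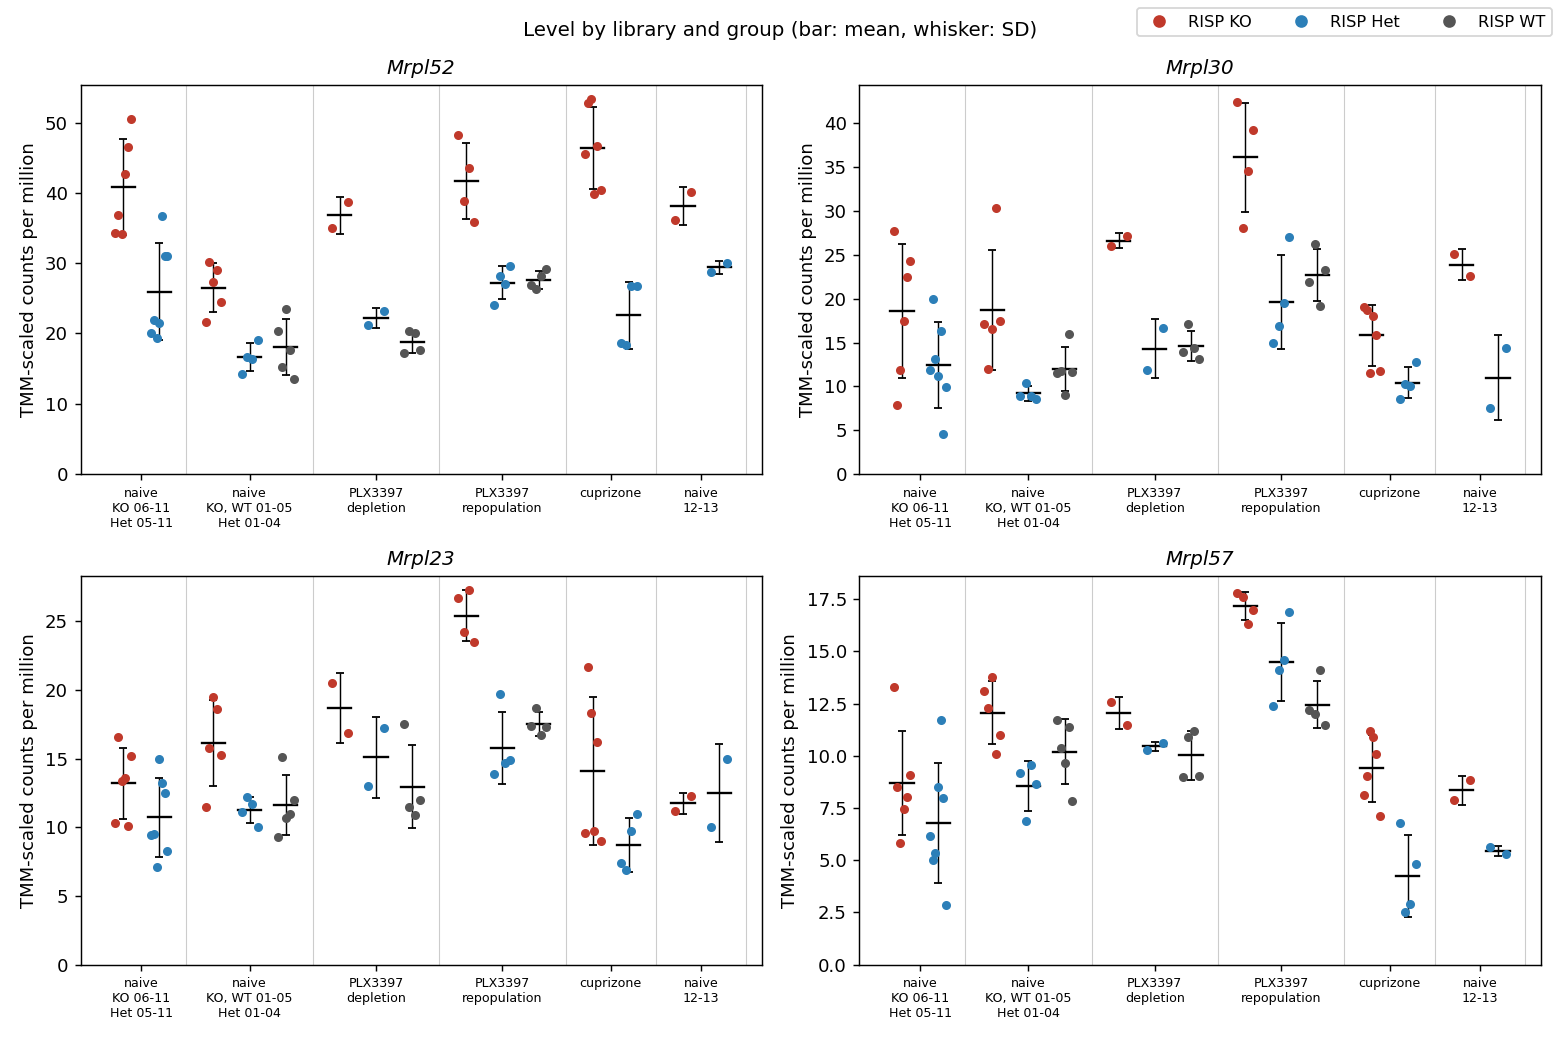
TMM-scaled CPM of Mrpl52, Mrpl30, Mrpl23 and Mrpl57 in each library (points) by group, with KO left of Het and WT in each condition and mean and SD as bar and whisker. Mrpl52 of KO libraries is above that of all controls with cuprizone, at depletion, at repopulation and in naive 12 to 13, and Mrpl30 is called higher in KO in 4 comparisons. In naive 12 to 13 the TMM factors differ, with 0.757 and 0.801 in KO and 1.015 and 1.048 in Het.

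Mrpl30 was the member with the next most calls, 4 of 9. Naive KO 01 to 05 held 17.1, 12, 16.6, 30.4 and 17.5 CPM, against 8.93, 10.4, 8.94 and 8.5 in Het (log2 fold change 1.02 ± 0.206, adjusted p = 0.00169). WT held 11.5, 11.7, 9.04, 16 and 11.6 CPM, and KO against WT gave 0.64 ± 0.19 without passing (adjusted p = 0.0519). KO libraries were above all Het libraries, while 1 WT library lay within the KO range. At repopulation KO held 42.5, 28.1, 34.6 and 39.3 CPM, against 14.9, 16.9, 19.5 and 27.1 in Het and 21.9, 26.3, 19.2 and 23.3 in WT. KO was higher than Het by 0.88 ± 0.21 (adjusted p = 0.00537) and than WT by 0.67 ± 0.209 (adjusted p = 0.0365). The call against WT was lost without any 1 of 6 of the 8 libraries (adjusted p up to 0.117), namely KO 01, 03 or 04 or WT 01, 03 or 04. At depletion the 26 and 27.2 CPM of KO were above the 13.9, 17.1, 14.4 and 13.1 of WT (0.86 ± 0.252, adjusted p = 0.0461), a call lost without any 1 of 5 of the 6 libraries, all but WT 02. Against Het at depletion, with 11.9 and 16.7 CPM, the difference of 0.89 ± 0.301 did not pass (adjusted p = 0.128).

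Mrpl23, a protein near the exit of the ribosome tunnel, was called in 3 comparisons. At repopulation KO held 26.7, 24.2, 27.3 and 23.5 CPM, against 13.9, 19.7, 14.7 and 14.9 in Het and 17.4, 18.7, 16.7 and 17.3 in WT. No KO library overlapped a control (0.69 ± 0.165 over Het, adjusted p = 0.00604, and 0.54 ± 0.165 over WT, adjusted p = 0.0337). The call against WT was lost without any 1 of 7 of the 8 libraries, all but KO 04 (adjusted p up to 0.0901). Naive KO 01 to 05 held 11.5, 15.8, 19.5, 18.6 and 15.3 CPM, against 11.1, 12.2, 11.7 and 10 in Het. KO 01 lay inside the Het range, and the difference of 0.52 ± 0.159 (adjusted p = 0.0448) was lost without any 1 of 8 of the 9 libraries, all but KO 01.

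Across all 74 genes, 7 were higher and 0 lower in naive KO 01 to 05 than in Het 01 to 04, beside 3.65% of all genes tested called higher and 2.73% called lower. The 7 are all of the large subunit. Besides Mrpl52, Mrpl30 and Mrpl23 they are Mrpl54 (0.91 ± 0.211) and Mrpl57 (0.50 ± 0.134), found only in mitochondria, and Mrpl20 (0.60 ± 0.155) and Mrpl17 (0.38 ± 0.116), with bacterial relatives. Mrpl54 held 7.01, 9.3, 8.43, 9.93 and 7.38 CPM in KO, against 4.21, 4.86, 4.62 and 4.14 in Het, with no overlap. In this comparison 70 of the 74 log2 fold changes were above 0, with a median of 0.24, against a median of 0.03 over all genes tested. Of the changes of Het 01 to 04 against WT, 61 of 74 were below 0, with a median of -0.14 (all genes -0.03), and 0 were called. No gene at all was called in Het against WT (0% of genes tested), while 8 members and 2228 genes had an unadjusted p under 0.05. The DESeq2 test called 1 member there (1.35%, against 1.34% of all genes). Against WT, 1 member, Mrpl52, was higher in KO (2.09% of genes tested called higher, 1.79% lower), and the median over the 74 was 0.11. Males made up 4 of 5 KO, 1 of 4 Het and 5 of 5 WT libraries. With sex in the fit, 5 members were called against Het and 2 against WT. The share of all genes called in that fit is not given. The Gm26917 and Yam1 share was 0.107 to 0.257% in KO, 0.0688 to 0.105% in Het and 0.072 to 0.138% in WT, and its part was not tested. In the order of the sample records, Het 01 to 04 stand with KO 05 and WT 05, apart from KO and WT 01 to 04. The mean log2 CPM of the 74 genes was 3.626 to 3.76 in Het, 3.855 in KO 05 and 3.765 in WT 05. It was 3.866 to 4.019 in KO 01 to 04 and 3.852 to 3.884 in WT 01 to 04. Whether this order marks a batch is not in the labels, and Het cannot be told apart from it here.

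In the second naive set, KO 06 to 11 against Het 05 to 11, 0 members were called in either direction by edgeR, beside 1.76% of genes called higher and 2.31% lower. Of the changes, 67 of the 74 were above 0 and the median was 0.36, against 0 over all genes. An unadjusted p under 0.05 was seen for 13 members (17.6%), against 18.7% of all genes, and the DESeq2 test called 5 (6.76%), against 8.18% of all genes, so neither share was above the background. Libraries of Het varied widely. The mean log2 CPM of the 74 genes was 3.36 to 3.63 in KO, and in Het it ran from 2.96 to 3.52, with Het 09 the highest. Without Het 09, 4 members were called, without Het 11 it was 3, and without Het 10 it was 1. Without any 1 of the other 10 libraries it was 0. The share of all genes called in these fits is not given, so the changed counts are not a result about the members. Het 09 was also high for Mrpl52, as given above. The 5 markers of dividing cells summed to 27.4 to 94.1 CPM in KO and 18.4 to 53.1 in Het, and their part was not tested. The TMM factors were 0.852 to 0.959 in KO and 0.943 to 1.082 in Het. Without these factors, the 74 genes took 0.0884 to 0.101% of counts in KO and 0.0758 to 0.0945% in Het, with medians of 0.0953 and 0.0786%. In the third naive set, with 2 libraries each, 52 changes were above 0 with a median of 0.15 (all genes 0.01). There 0 members and 0% of all genes were called by edgeR, and 3 members and 1678 genes had an unadjusted p under 0.05. DESeq2 called 1 member (1.35%, against 1.93% of all genes). The TMM factors of this set were 0.757 and 0.801 in KO and 1.015 and 1.048 in Het. Without these factors, the share of counts on the 74 genes was lower in KO (0.0805 and 0.0937%) than in Het (0.104 and 0.105%). The part of the scaling in this set was not tested.

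**Figure D2:**
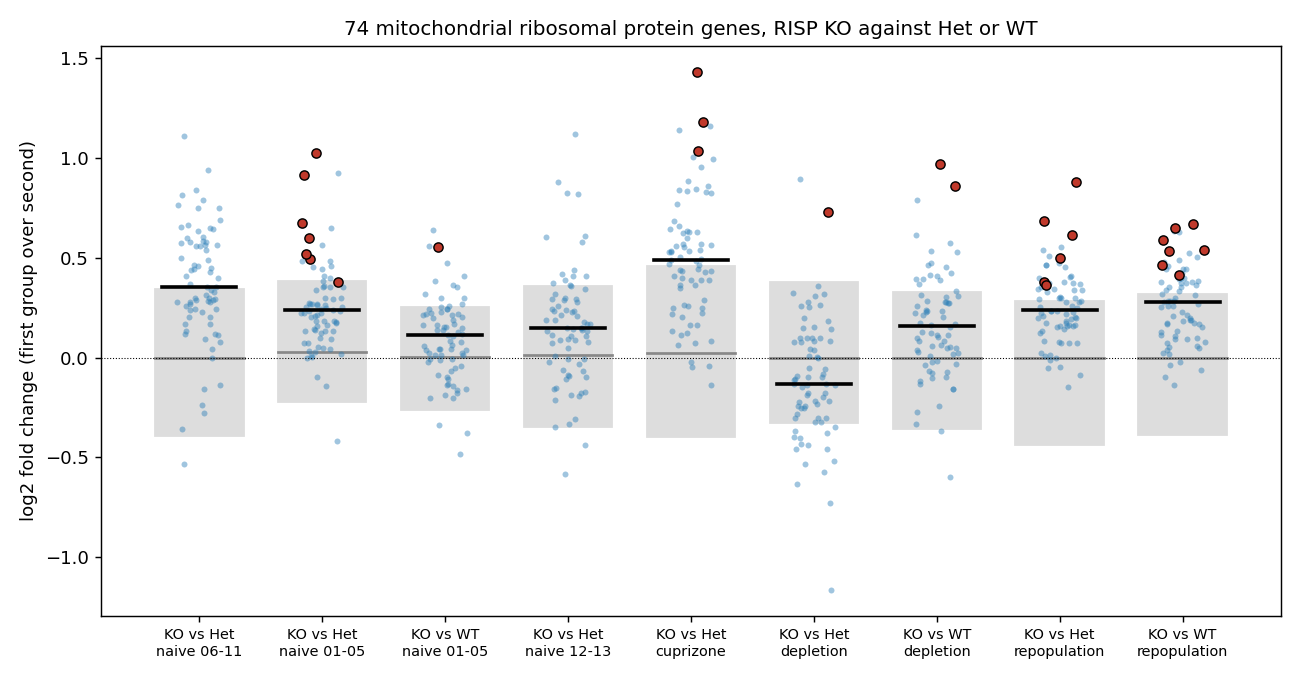
Log2 fold change (vertical axis) of each of the 74 genes (points) in the 9 comparisons of KO with Het or WT, with calls in outlined red, the median of the 74 as a black bar, and the median and middle 50% of all genes tested as grey line and box. The median of the 74 is above that of all genes in 8 comparisons and is -0.13 in KO against Het at depletion.

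With cuprizone, 3 members were higher and 0 lower in KO than in Het, beside 2.14% of genes called higher and 2.59% lower. They are Mrpl52, Mrpl45, which lies by the tunnel exit and holds the ribosome at the inner membrane, and Mrps17, a small subunit protein with a bacterial relative. Mrpl45 ran from 14.2 to 25.1 CPM in KO with a median of 15.5, against 7.66, 7.49, 8.18 and 8.03 in Het (1.18 ± 0.246, adjusted p = 0.0137). Mrps17 ran from 13.6 to 41.2 CPM in KO with a median of 20.9, against 6.78, 8.11, 8.71 and 11 in Het (1.43 ± 0.34, adjusted p = 0.0277). Neither overlapped, but leaving out 1 library ended the call of Mrps17 in 5 of 10 cases. The median over the 74 genes was 0.49, the largest of the 9 comparisons (all genes 0.02), and 70 were above 0. The TMM factors were 0.933 to 1.022 in KO and 1.036 to 1.189 in Het. Without these factors, the 74 genes took 0.0968 to 0.142% of counts in KO and 0.0843 to 0.0907% in Het, with medians of 0.104 and 0.0874%. These libraries are the shallowest, with 3318000 to 5100363 counts in KO and 2695432 to 3657793 in Het. Their Gm26917 and Yam1 share was 2.43 to 6.7% in KO and 2.22 to 4.55% in Het. With that share in the fit as 2 classes, 3 members were called. The 5 markers of dividing cells summed to 40.1 to 96.2 CPM in KO, against 14.1 to 38.8 in Het, and their part was not tested.

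At depletion the sign of the median differed between controls, and that difference was not tested. Against Het, 1 member (Mrpl52) was higher and 0 lower, beside 1.23% of genes called higher and 1.09% lower. Only 27 of 74 changes were above 0 there, and the median was -0.13 (all genes 0). Against WT, 2 members (Mrpl52 and Mrpl30) were higher and 0 lower, beside 2.77% and 1.52% of all genes. Here 56 changes were above 0, with a median of 0.16 (all genes 0). The mean log2 CPM of the 74 genes was 3.92 and 3.98 in KO, against 3.99 and 4.11 in Het and 3.69 to 3.87 in WT, so KO lay between its 2 controls. Het and WT were not tested against each other at depletion.

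At repopulation, 6 members were higher and 0 lower in KO than in Het, beside 5.13% of genes called higher and 4.66% lower. Besides Mrpl52, Mrpl30 and Mrpl23 they are Mrpl24 (0.50 ± 0.144), Mrpl4 (0.38 ± 0.112) and Mrpl10 (0.36 ± 0.108), all large subunit proteins with bacterial relatives, Mrpl10 in the stalk that recruits translation factors. Mrpl24 held 66.3, 52.7, 59.2 and 65.6 CPM in KO, against 39.9, 44.1, 36.8 and 51.5 in Het, without overlap. Against WT, 7 were higher and 0 lower (5.34% and 4.61% of all genes): Mrpl52, Mrpl57 (0.46 ± 0.139), Mrps28 (0.65 ± 0.198), Mrpl23, Mrpl30, Mrpl12 (0.41 ± 0.135), a stalk protein, and Mrps7 (0.53 ± 0.174), of the small subunit. Mrps28, also of the small subunit, held 15, 9.35, 10.3 and 8.19 CPM in KO, against 7.38, 6.81, 5.7 and 7.42 in WT. Mrpl57 held 17.8, 17.6, 16.3 and 17 CPM in KO, against 12.2, 12, 14.1 and 11.5 in WT. In the libraries of both genes KO stood above WT without overlap. The median over the 74 was 0.24 against Het, with 68 above 0, and 0.28 against WT, with 69 above 0. DESeq2 called 7 members against Het (9.46%, all genes 13.2%) and 10 against WT (13.5%, all genes 13.6%), so neither share was above the background. Males made up 3 of 4 KO, 1 of 4 Het and 2 of 4 WT libraries. Het against WT gave a median of -0.01, with 36 above 0, and 0 members and 0% of genes called by edgeR and 0 members by DESeq2; 1 member and 853 genes had an unadjusted p under 0.05. In place of the 7 against WT, 1 member was called with DESeq2's size factors in the fit, and 1 without WT 01. The 5 markers of dividing cells summed to 32.1 to 41.8 CPM in KO, against 13.3 to 21.6 in Het and 10.4 to 23 in WT. The Gm26917 and Yam1 share was 0.195 to 0.276% in KO, 0.0897 to 0.181% in Het and 0.102 to 0.153% in WT. The part of either in these calls was not tested.

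Over the 9 comparisons of KO with a control, 15 of the 74 genes (20.3%) were called higher at least once, against 10.2% of all genes tested, and 0 were called lower, against 10.5%. The 59 never called are 79.7% of the members, near the 79.5% of all genes. Comparisons with Het and with WT share KO libraries, so these counts are not over separate samples. The 6 comparisons of KO with Het share no library. In these, 17 members (23%) had log2 fold changes above 0 in all 6, against 9.98% of all genes tested, and 51 (68.9%) in at least 5, against 22.9%. These signs are of TMM-scaled values. In naive 12 to 13 the unscaled share of counts on the 74 genes was lower in KO (0.0805 and 0.0937%) than in Het (0.104 and 0.105%). TMM factors were also lower in KO with cuprizone, and mostly lower in naive 06 to 11. There the median unscaled share was still higher in KO, as given above. How many signs would change without the factors was not tested. The 17 include Mrpl52, Mrpl30, Mrpl54, Mrpl57, Mrpl24, Mrpl20, Mrpl10, Mrpl48, Mrps28, Mrpl21 and Mrpl34. At the other end, Mrpl44, an RNase III-like protein, was above 0 in 1 of 6 and Mrps15 in 2 of 6. In 8 of the 9 comparisons the median of the 43 members with a bacterial relative and that of the 31 found only in mitochondria were both above 0. With cuprizone they were 0.53 and 0.45, and at repopulation against Het 0.28 and 0.22. Split by name only, Mrpl and Mrps genes had medians of 0.53 and 0.42 with cuprizone and 0.27 and 0.19 at repopulation against Het. Neither split was tested.

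**Figure D3:**
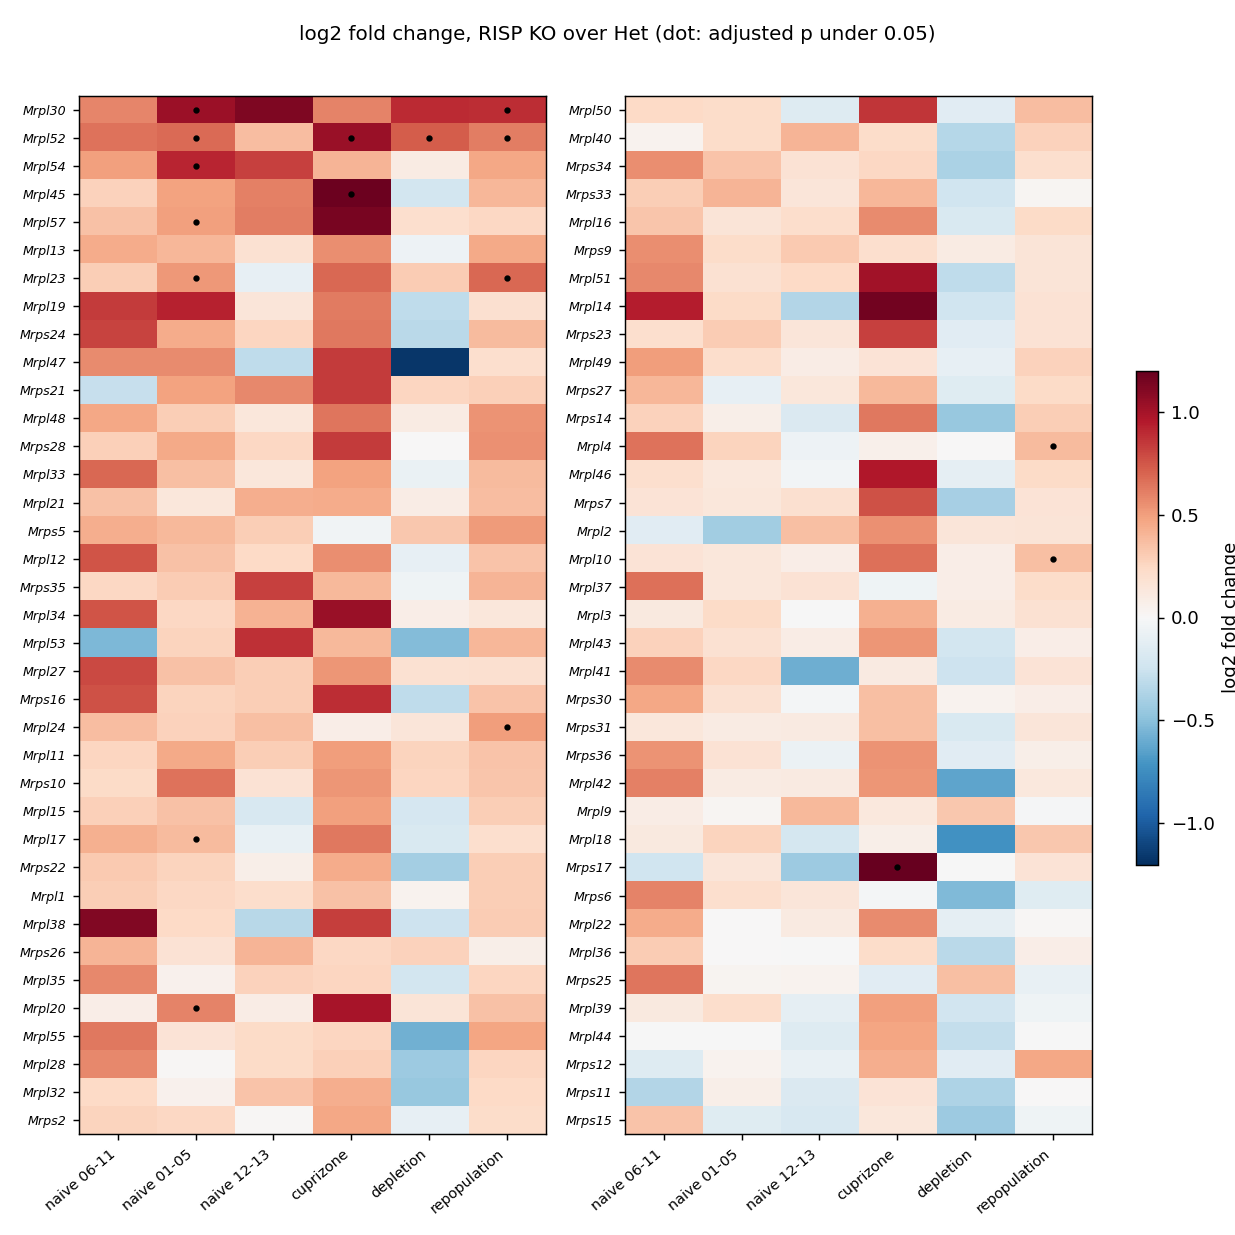
Log2 fold change of KO over Het for each of the 74 genes (rows, ordered by the median of the 6 values, in 2 panels) in the 6 comparisons that share no library (columns), red above 0 and blue below, with a dot on calls. Mrpl30 and Mrpl52 are at the top and red in all 6 columns, and the depletion column holds most of the blue.

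Genes that act with the mitochondrial ribosome were read from lists beside the members. Of the 13 mRNAs of mitochondrial DNA, which these ribosomes translate, KO was called higher than Het for 9 in naive 06 to 11, 4 in naive 01 to 05, 4 with cuprizone, 8 at depletion and 8 at repopulation. Of all genes, 1.76, 3.65, 2.14, 1.23 and 5.13% were called higher, in that order. In naive 12 to 13 no gene at all was called. Against WT, KO was called higher for 11 naive, 9 at depletion and 6 at repopulation, beside 2.09, 2.77 and 5.34% of all genes. None of the 13 was called lower in any of the 9 comparisons. mt-Co1, a core subunit of cytochrome oxidase, had a log2 fold change of 1.52 ± 0.152 in naive 06 to 11 and of 0.85 ± 0.175 against Het at repopulation. Of the 2 mitochondrial ribosomal RNAs, both were called higher in KO in naive 06 to 11 and 1, mt-Rnr2, with cuprizone (1.63 ± 0.269). Of 9 ribosome proteins that carry other names, Chchd1 was higher at depletion against WT (0.63 ± 0.186) and at repopulation against Het (0.55 ± 0.154) and WT (0.58 ± 0.154). Aurkaip1 was higher at repopulation against WT (0.52 ± 0.138) and Gadd45gip1 with cuprizone (0.98 ± 0.237). Among 15 translation factor genes (16 gene IDs), Gfm2, which takes part in ribosome recycling, was lower in KO at repopulation, by -0.80 ± 0.119 against Het (adjusted p = 2.8e-05) and -0.60 ± 0.119 against WT (adjusted p = 0.000915). Slirp, which binds mitochondrial mRNAs, was higher in naive KO 01 to 05 than in Het (0.74 ± 0.176) and at repopulation than in WT (0.59 ± 0.182). Of the 26 genes of ribosome assembly listed, 23 were tested. At most 1 of these was called in any comparison of KO with a control, higher in 3 comparisons and lower in 1. Over the 9 comparisons, 0 to 5.34% of all genes were called higher and 0 to 4.66% lower, so this count is not a result about the assembly genes.

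**Figure D4:**
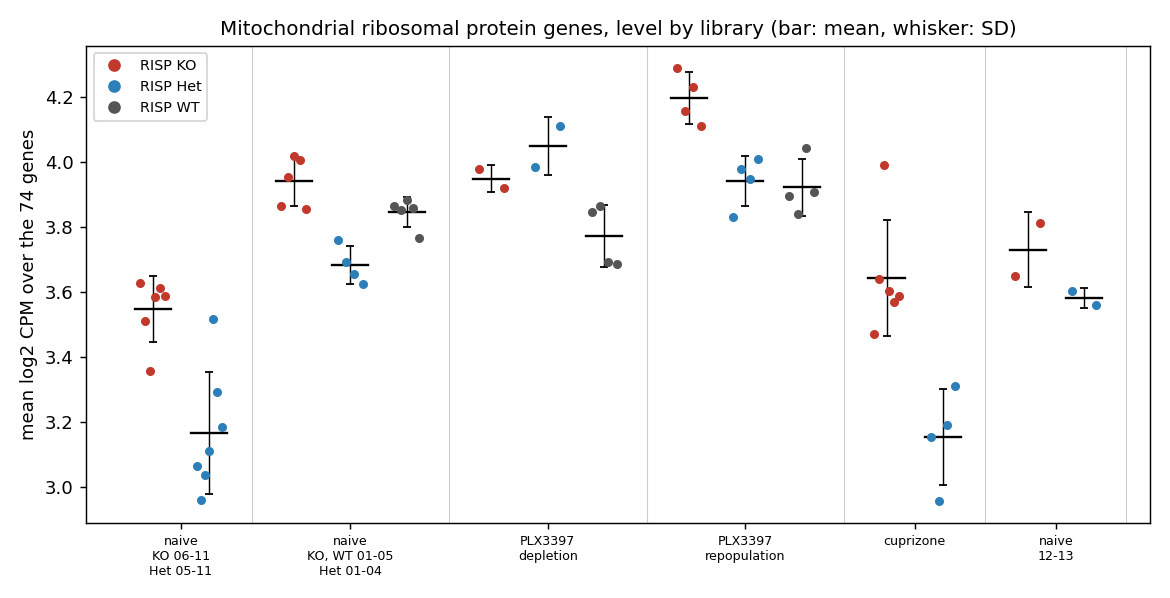
Mean log2 CPM over the 74 genes (vertical axis) in each library (points) by group, with KO left of Het and WT and mean and SD as bar and whisker. KO and Het do not overlap in naive 01 to 05, with cuprizone, at repopulation or in naive 12 to 13. At depletion Het is at the top. In naive 12 to 13 the order depends on TMM: the unscaled share of counts was 0.0805 and 0.0937% in KO, below 0.104 and 0.105% in Het.

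Treatment was then compared inside each genotype. Naive Het 01 to 04 stand apart in the order of the sample records, as given above, and the part of this was not tested. At depletion against naive, 10 members were higher and 0 lower in Het (6.73% and 4.37% of all genes), 0 higher and 1 lower in KO (2.44% and 1.82%), and 1 higher and 0 lower in WT (2.64% and 3%). In Het, the leading 5 by p were Mrps24 (0.90 ± 0.188), Mrpl42 (0.89 ± 0.204), Mrpl14 (0.77 ± 0.183), Mrpl53 (1.01 ± 0.27) and Mrps6 (0.95 ± 0.255). The other 5 were Mrps33, Mrpl51, Mrps16, Mrpl16 and Mrpl28. The median over the 74 was 0.40. Without depletion Het 02, 1 member was called in place of 10. In KO, Mrpl47 was lower at 5.09 and 3.66 CPM at depletion, against 10.1, 15, 10.6, 20.6 and 10.5 in naive 01 to 05 (-1.61 ± 0.396, adjusted p = 0.0152). These groups did not overlap, but Mrpl47 has 616 exon bases opposite Ndufb5 and 452 opposite Actl6a. The call was lost without either depletion library (adjusted p up to 0.245). In WT, Mrpl28, a large subunit protein with a bacterial relative, was higher, with 20.4, 22.7, 17.2 and 15.5 CPM at depletion, against 12.4, 14.9, 12.3, 13.5 and 12.8 naive (0.52 ± 0.156, adjusted p = 0.0421). Medians over the 74 were 0.02 in KO and -0.06 in WT. The difference between KO and WT in this response was itself tested, and 0 members passed, against 1 of all genes (0.00543% called higher, 0% lower); 1 member and 1576 genes had an unadjusted p under 0.05. Of the 7 border macrophage markers, 5 were lower at depletion in KO, 7 in Het and 7 in WT, and their part was not tested.

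Repopulated microglia had more Mrpl52 and Mrpl30 than naive ones in each genotype. Mrpl52 was higher at repopulation by 0.65 ± 0.128 in KO (adjusted p = 0.000996), 0.71 ± 0.137 in Het (adjusted p = 0.000508) and 0.61 ± 0.129 in WT (adjusted p = 0.00186). In WT it held 26.9, 26.3, 28.2 and 29.2 CPM at repopulation, all above the naive values given before. Mrpl30 was higher by 0.95 ± 0.197 in KO, 1.09 ± 0.214 in Het and 0.92 ± 0.199 in WT, and in no genotype was either call lost on leaving out 1 library. In all, 6 members were higher in KO (4.27% of all genes), 6 in Het (6.03%) and 3 in WT (4.09%), and 0 were lower, beside 2.36%, 4.13% and 1.95% of all genes. Mrpl23 was called in KO (0.65 ± 0.155) and WT (0.59 ± 0.157), and Mrpl57 in KO (0.51 ± 0.131) and Het (0.76 ± 0.14). Mrpl24 and Mrps14 were called in KO, and Mrps33, Mrpl54 and Mrpl20 in Het. Medians were 0.24 in KO, 0.24 in Het (all genes 0.04) and 0.03 in WT. The KO minus WT difference in this response was not called for any member by edgeR, beside 0.0326% of genes called higher and 0.0923% lower, with 3 members (4.05%) and 8.5% of all genes under an unadjusted p of 0.05; for Mrpl52 it was 0.04 ± 0.183. The 7 border macrophage markers were all lower at repopulation in each genotype, and their part was not tested.

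Between repopulation and depletion, 1 member was higher and 0 lower in KO (2.09% and 1.44% of all genes), 0 and 1 in Het (2.64% and 2.24%), and 2 and 1 in WT (5.3% and 2.38%). In KO this was Mrpl47, at 10.1, 11.6, 14.5 and 10.8 CPM at repopulation (1.42 ± 0.401, adjusted p = 0.0427), a call lost without any 1 of the 6 libraries. In WT, Mrpl52 (0.56 ± 0.138) and Mrpl44 (0.37 ± 0.114) were higher. Mrpl28 was lower in Het (-0.67 ± 0.197) and WT (-0.54 ± 0.165). In WT it held 14.1, 12.8, 11.7 and 13.4 CPM at repopulation. Medians over the 74 were 0.26 in KO, -0.11 in Het and 0.16 in WT. The KO minus WT difference was called for 0 members by edgeR (0% of genes higher, 0.0326% lower), with 4 members (5.41%) and 8.5% of all genes under an unadjusted p of 0.05.

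Cuprizone against naive left the 74 genes without a call by edgeR in KO (0.185% of all genes called higher, 0.429% lower) and in Het (1.33% and 1.53%). An unadjusted p under 0.05 was seen for 5 members in KO (6.76%, against 15.7% of all genes) and 6 in Het (8.11%, against 17.6%). DESeq2 called 0 members in KO, beside 2.98% of all genes, and 1 in Het (1.35%), beside 5.27%. The medians were 0.09 in KO and -0.02 in Het, while all genes had medians of -0.09 and -0.16. Cuprizone libraries are shallower than the naive ones, so depth and treatment cannot be told apart here. The KO minus Het difference was called for 0 members and 0% of all genes, with 5 members and 1200 genes under an unadjusted p of 0.05.

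**Figure D5:**
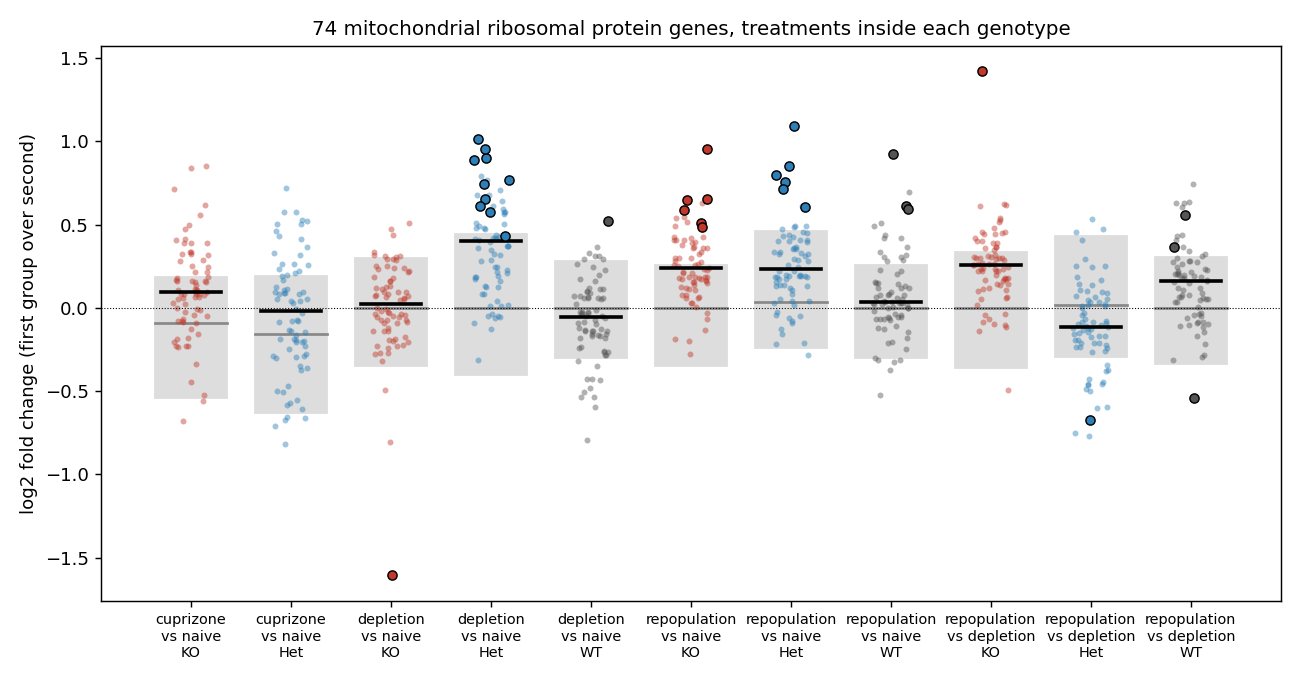
Log2 fold change (vertical axis) of each of the 74 genes (points, calls outlined) for treatments inside KO (red), Het (blue) and WT (grey), with the median of the 74 as a black bar and the median and middle 50% of all genes tested in grey. Depletion against naive has a median of 0.40 in Het, 0.02 in KO and -0.06 in WT; repopulation against naive has 0.24, 0.24 and 0.03 in KO, Het and WT.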

How the data were processed

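Raw counts per gene were deposited by the authors as 1 table for 64 libraries. Per the labels' protocols a kit that keeps strand was used on total RNA, with single-end reads. The submitters' processing notes name GRCm38 as the build, Salmon 1.5.2 and STAR 2.6.1d, Trim Galore 0.6.7 and bcl2fastq 2.20; which tool counted and its strand setting are not given in the sources used here. Genes were kept by filterByExpr (minimum count 10, minimum total 15), leaving 18413, and scaled by TMM over all libraries. edgeR 4.0.16 (R 4.3.3, limma 3.58.1) fitted quasi-likelihood models with 1 mean per group inside each library set, with Benjamini-Hochberg adjustment over all genes and 0.05 as the threshold. DESeq2 1.42.0 was an alternative. Mean levels used log2 CPM with a prior count of 2. A library with over 1 CPM from Y-linked genes was called male. Positions are from GENCODE for GRCm38. Totals of 2695432 to 24027566 counts per library limit precision for low genes. The fits were tested on simulated data. The members and all gene lists were chosen with earlier results of these data known. Genes named are the 5 called with the smallest p per direction and comparison, those called the same way in at least 3 comparisons of KO with a control, the 3 highest and lowest, and up to 4 of the other translation lists. Further members are named to account for all calls, and mt-Co1 and Mmp14 were chosen after their values were seen. Replicate numbers were checked, and the main fits do not pair libraries by them. Alternatives were another scaling, filter, tool, fit or block, sex, the noncoding RNA share, and leaving out libraries.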

Additional observations from a re-analysis of the deposited data

Results flagged for a closer look

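Of 84 groups of 4 to 10 libraries examined for named members and for the mean over the 74 genes, 6 had 1 library far from the rest. Chance flags about 1 in 20 such groups. Het naive 02 had 16.9 CPM of Mrpl16, against 15.7 to 15.8 in the other 3 of its set. Het repopulation 03 had 9.48 CPM of Mrpl20, against 13.4 to 13.7. Het naive 01 had 21 CPM of Mrpl51, against 16.9 to 17.1. KO naive 03 had 19.7 CPM of Mrps14, against 14.5 to 15.4. The mean log2 CPM of the 74 genes was 3.99 in KO cuprizone 03, against 3.47 to 3.64 in the other 5 libraries, and without it the median of KO against Het was 0.41 with 3 members called. That mean was 3.77 in WT naive 05, against 3.85 to 3.88 in the other 4.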

How the results depend on the processing

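No called member changed direction under any alternative. Some medians over the 74 genes that lie near 0 changed sign. For cuprizone against naive in Het (-0.02) the median was 0.04 with DESeq2's size factors, 0.07 with DESeq2, 0.04 without the filter and 0.03 without Het cuprizone 02. For Het against WT at repopulation (-0.01) it ran from -0.01 to 0.06 on leaving out 1 library. For depletion against naive in KO (0.02) it was -0.01 with the replicate block. For the KO minus WT difference in depletion against naive it was 0.07, and at its lowest -0.000771 without WT depletion 03. Counts of members called are given here, with the value reported above in brackets. Apart from DESeq2, the share of all genes called under each alternative is not given. A changed count is therefore not a result about the members.

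With DESeq2's Wald test, KO against Het gave 5 (0) in naive 06 to 11, 1 (0) in naive 12 to 13 and 6 (3) with cuprizone. These were 6.76, 1.35 and 8.11% of members, beside 8.18, 1.93 and 8.45% of all genes. That test gave 3 (1) for KO and 1 (0) for Het against naive WT (4.05 and 1.35%, all genes 6.58 and 1.34%). Depletion against naive gave 2 (1) in KO (2.7%, all genes 6.67%) and 17 (10) in Het (23%, all genes 15%). Repopulation against naive gave 11 (6) in Het (14.9%, all genes 14%). Repopulation against depletion gave 3 (1) in KO and 3 (1) in Het (4.05% each, all genes 6.71 and 8.05%). Cuprizone against naive gave 1 (0) in Het (1.35%, all genes 5.27%).

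With all 64 libraries in 1 fit, KO against Het gave 19 (0) in naive 06 to 11, 3 (7) in naive 01 to 05, 21 (3) with cuprizone, 0 (1) at depletion and 1 (6) at repopulation. KO against WT gave 1 (2) at depletion and 1 (7) at repopulation. Depletion against naive gave 0 (1) in KO, 1 (10) in Het and 0 (1) in WT. Repopulation against naive gave 2 (6) in KO and 3 (6) in Het, and against depletion 0 (1) in KO, 0 (1) in Het and 0 (3) in WT. Cuprizone against naive gave 1 (0) in KO and 5 (0) in Het.

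With only the compared libraries in the fit, KO against Het gave 3 (7) in naive 01 to 05 and 0 (1) at depletion. KO against WT gave 0 (1) naive, 1 (2) at depletion and 3 (7) at repopulation. Depletion against naive gave 0 (1) in KO, 2 (10) in Het and 0 (1) in WT, and repopulation against depletion 0 (1) in Het and 1 (3) in WT.

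Without the filter on low counts, KO against Het gave 4 (7) in naive 01 to 05 and 0 (1) at depletion, and KO against WT 1 (2) at depletion and 1 (7) at repopulation. Depletion against naive gave 0 (1) in WT, and repopulation against depletion 0 (1) in KO, 0 (1) in Het and 1 (3) in WT. With DESeq2's size factors, KO against WT gave 1 (2) at depletion and 1 (7) at repopulation. Sex as a covariate, chosen after seeing the data, gave 2 (1) for KO against naive WT and 4 (7) at repopulation.

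In no comparison with 3 or more pairs was every correlation between replicates with the same number over 0.1. In KO against Het at depletion, with 2 pairs, the correlations were 0.1. With 2 libraries in each group both correlations are equal by construction, so they are 1 value and say nothing separate about pairing. Low correlations do not show that libraries are unpaired. The replicate block gave 2 (1) for KO and 1 (0) for Het against naive WT, and 0 (1) in KO and 0 (1) in Het for repopulation against depletion. It moved no other count by over 1.5 times. No paired analysis was possible for cuprizone against naive because those groups share fewer than 2 replicate numbers. The cause of these shifts was not tested.

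Leaving out 1 library at a time, KO against Het ranged from 0 to 4 in naive 06 to 11, 3 to 8 in naive 01 to 05 (3 without Het 04), 0 to 0 in naive 12 to 13, 2 to 4 with cuprizone, 0 to 0 at depletion and 3 to 6 at repopulation (3 without Het 01). KO against WT ranged from 1 to 5 naive (5 without KO 01), 1 to 2 at depletion and 1 to 6 at repopulation. Het against WT ranged from 0 to 1 naive and 0 to 0 at repopulation. Depletion against naive ranged from 0 to 2 in KO, 1 to 12 in Het and 0 to 2 in WT, and repopulation against naive from 4 to 6 in KO, 5 to 8 in Het and 2 to 4 in WT. Repopulation against depletion ranged from 0 to 0 in KO, 0 to 3 in Het and 1 to 4 in WT. The 3 differences between KO and WT gave 0 on leaving out each of their libraries. Cuprizone against naive in Het and the KO minus Het difference under cuprizone gave 0 on leaving out each of the 4 Het cuprizone libraries; naive and KO libraries were not left out there. Leaving out a library of naive 06 to 11 or of KO cuprizone was chosen after seeing the data. Where this leaves 1 library in a group, it is assumed to vary like the other groups. Cuprizone libraries, with the fewest counts, limit what low members can show.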

Other observations

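Old Het libraries were not tested against adult ones, since Gm26917 and Yam1 took unlike shares of their counts, and values are only given side by side. Mrpl52, the large subunit protein called most often in KO, held 51.5, 31.7 and 51.3 CPM in the 3 old naive Het libraries, against 28.8 and 30.1 CPM in adult naive Het 12 and 13 of the same library set. The mean log2 CPM of the 74 genes was 3.52 to 3.92 in old Het, against 3.56 to 3.6 in those adult Het libraries, so the ranges overlapped. These values depend on TMM factors, which were 0.709 to 0.92 in old Het and 1.015 and 1.048 in adult Het. Without them, the 74 genes took 0.0859 to 0.0904% of counts in old Het and 0.104 to 0.105% in adult Het. The Gm26917 and Yam1 share was 5.94 to 13.6% in old Het and 4.82 to 5.5% in adult Het. The 5 markers of dividing cells summed to 50 to 84.4 CPM in old Het and 14.1 to 38.2 CPM in adult Het.

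The mRNAs of mitochondrial DNA were higher at depletion than in naive libraries for 13 of 13 in KO, 3 of 13 in Het and 12 of 13 in WT, and 0 were lower. Of all genes, 2.44% in KO, 6.73% in Het and 2.64% in WT were called higher, and 1.82%, 4.37% and 3% lower. KO and Het had 2 depletion libraries each. In the same comparisons the medians of the 74 nuclear genes were 0.02 in KO, 0.40 in Het and -0.06 in WT. The part of other cell types or depth in this was not tested.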
